A study of Homo sapiens with 12 samples.

Results

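Metallothioneins are small cysteine-rich proteins that hold zinc and copper, and the 10 genes described here are 6 of them (MT1E, MT1F, MT1G, MT1M, MT1X and MT2A), the zinc-sensing transcription factor MTF1, and the zinc transporters SLC30A1, SLC39A10 and SLC39A14. They were selected on measured values of these same libraries, out of 57527 genes in the table, so their levels and differences are given as a description without p-values. All 10 passed the filter on low values, a signal of at least 1 in at least 3 libraries, as did 16789 of all genes.

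The libraries came from HK-2 cells, an established line of immortalised human proximal tubule epithelium, with no genetic change named in the labels. Cells were cultured for 72 h either with no addition (control) or with a suspension of 2,8-dihydroxyadenine, DHA, in the culture medium. The doses were 60 ug/ml (the low dose), 120 ug/ml (the middle dose) and 240 ug/ml (the high dose), and all groups grew in one serum-containing medium. DHA is a poorly soluble purine that crystallises in the kidney of people who lack adenine phosphoribosyltransferase. Each of the 4 groups held 3 libraries, and the labels name no carrier of the suspension.

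The deposited values are a normalized signal per transcript, summed here per gene, and the read depth behind them is unknown. The sources used here do not say if the signal was divided by transcript length, so levels of different genes were not ranked. The summed signal of a library ran from 1143850 to 1228979 in the controls and from 791808 to 969479 at 240 ug/ml. Differences are given with the standard error (SE) of a limma fit over all 12 libraries, and a gene is said to be called where the adjusted p of that fit over the 16789 genes was under 0.05. The markers PAX8, CDH6 and GGT1 of the tubule lineage were present in every library, while LRP2, SLC22A6 and SLC22A8, which define the differentiated proximal tubule, were listed at 0 in all 12. They belong to a list of 15 tubule markers, of which 6 passed the filter. At 240 ug/ml 3 of these 6 were called lower and 0 higher. Of 8 epithelial markers 4 were called lower and 1 higher, where 23.5% of all genes were lower and 19.7% higher. Marker lists of distal nephron and endothelium summed to at most 0.7 in any library, and the immune list summed to 72.7 to 146. Nearly all of that was CD68, a lysosomal protein of macrophages and other cells (110 to 140 in the controls, 72.2 to 99.0 at 240 ug/ml, log2 difference -0.61, adjusted p = 0.0279), whereas PTPRC, CD3E, MS4A1 and TYROBP were listed at 0.

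In mammalian cells free zinc is sensed by MTF1, a zinc-finger protein that moves to the nucleus and binds metal response elements in the promoters of the metallothioneins and of SLC30A1. The SLC30 (ZnT) proteins carry zinc out of the cytosol, to the outside or into organelles, and the SLC39 (ZIP) proteins carry it in. Metallothioneins also respond to copper, cadmium, glucocorticoids and oxidants, and in the kidney they are best known for binding cadmium in the proximal tubule.

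The 6 metallothioneins lie in 1 cluster of 75998 bases at chr16:56608199-56684196 (GRCh38), and their coding sequences are shown because how far reads can be assigned to each gene bears on every value below. The main transcript of each has 3 exons and a coding sequence of 186 bases. Capitals mark the bases that differ from MT2A at the same position, 14 in MT1X and 16 in MT1F (GENCODE 29, 5′ to 3′).
MT2A: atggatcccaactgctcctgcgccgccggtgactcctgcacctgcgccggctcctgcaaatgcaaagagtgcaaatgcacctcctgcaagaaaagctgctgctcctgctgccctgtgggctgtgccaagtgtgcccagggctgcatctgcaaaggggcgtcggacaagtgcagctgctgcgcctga
MT1X: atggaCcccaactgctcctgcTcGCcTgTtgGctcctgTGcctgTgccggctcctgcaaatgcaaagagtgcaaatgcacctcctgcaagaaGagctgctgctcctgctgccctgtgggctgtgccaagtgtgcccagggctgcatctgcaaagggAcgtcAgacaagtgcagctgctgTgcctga
MT1F: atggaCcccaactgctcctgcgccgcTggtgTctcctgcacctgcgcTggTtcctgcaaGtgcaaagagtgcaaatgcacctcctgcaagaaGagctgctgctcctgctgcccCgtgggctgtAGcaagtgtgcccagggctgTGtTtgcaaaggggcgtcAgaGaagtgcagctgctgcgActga

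Coding identity between the 6 genes ran from 88.7% (MT1F and MT1X, 21 differences) to 95.2% (MT1G and MT2A, 9 differences). The longest run shared by a pair of main transcripts was 96 bases, between MT1G and MT1X, and the other pairs of the family, MT1A included, shared runs of 32 to 65 bases. No stretch of 150 bases, the length of 1 read, was shared by these transcripts. Stretches of 31 bases shared with another of them made up 6.4% of those in MT1F, 6.8% in MT1E, 6.9% in MT2A, 7.3% in MT1M, 19.3% in MT1X and 22.9% in MT1G. The share of MT2A is over its GENCODE main transcript of 786 bases, and was not computed from the RefSeq start used in the promoter search below. The sources used here do not say how reads were divided between the paralogs, so the split between the genes is uncertain, most of all for MT1G, whose level is low and whose shared part is large.

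The upstream sequences of 5 of the 10 genes were taken from RefSeq promoters of GRCh38.p14, and those that hold the core of the metal response element are shown. SLC39A14 was left out of this search. The core was searched as TGCACNC or TGCGCNC on both strands in the 250 bases before each start, and capitals mark matches. Among 35116 promoters 24.8% held at least 1 match, 6.5% at least 2 and 1.58% at least 3. MT2A held 7 matches, a number reached by 0.03% of promoters, and 3 windows of 30 bases with 4 of them are printed, which the GENCODE annotation places within the first exon of its longer MT2A transcript. MT1X held 4 matches, a number reached by 0.37% of promoters, and SLC30A1 held 1. No match to these letters was found in the windows of MTF1 or in either of those of SLC39A10. The SLC39A10 windows lie inside the gene as GENCODE annotates it, so the bases before its GENCODE start were not searched. The SLC30A1 window lies upstream of the GENCODE start of that gene, and the bases between them were not searched.
MT2A chr16:56608427-56608456, + strand: cgggTGCGCCCggcccagTGCGCGCggccg
MT2A chr16:56608491-56608520, + strand: ggggcGTGTGCAggcagcgcccggccgggg
MT2A chr16:56608525-56608554, + strand: gctttTGCACTCgtcccggctctttctagc
MT1X chr16:56682220-56682423, + strand: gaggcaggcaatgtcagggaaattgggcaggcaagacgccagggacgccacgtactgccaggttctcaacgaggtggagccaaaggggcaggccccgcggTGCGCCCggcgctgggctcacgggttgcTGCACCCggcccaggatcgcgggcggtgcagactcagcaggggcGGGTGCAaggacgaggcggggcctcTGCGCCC
SLC30A1 chr1:211579162-211579411, - strand: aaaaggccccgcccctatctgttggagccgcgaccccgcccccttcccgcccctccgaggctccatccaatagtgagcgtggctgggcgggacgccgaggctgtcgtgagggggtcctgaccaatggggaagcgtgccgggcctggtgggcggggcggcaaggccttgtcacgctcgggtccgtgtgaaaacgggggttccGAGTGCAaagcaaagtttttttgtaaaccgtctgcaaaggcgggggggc

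The metallothioneins divided into a set of 4 that was lower with DHA (MT1F, MT1M, MT1E and MT1G) and a pair that was not lower (MT1X and MT2A). At 240 ug/ml the mean level was 6.27 times lower for MT1F, 2.90 times lower for MT1M, 2.41 times lower for MT1G and 1.68 times lower for MT1E than in the controls. MT2A and MT1X were 1.18 and 1.24 times higher on average, with libraries that overlapped the controls. Fewer cells of a kind and less RNA per cell cannot be told apart in these bulk libraries.

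MT1F (ENSG00000198417.6, chr16:56657694-56660698) encodes one of the MT1 isoforms. Its signal was 385, 375 and 338 in the 3 controls, 196, 212 and 119 at the low dose, 81.0, 70.1 and 68.2 at the middle dose, and 85.1, 32.7 and 57.2 at the high dose. Every treated library was below every control, and the 60 ug/ml libraries were all above those of both higher doses. The mean was 366 ± 25.1 (SD, n = 3) in the controls and 58.3 ± 26.2 at 240 ug/ml. On the log2(value + 1) scale the difference from control was -1.10, -2.31 and -2.73 at 60, 120 and 240 ug/ml, each with an SE of 0.29. The step from 60 to 240 ug/ml was -1.63, and the ranges at 120 and 240 ug/ml overlapped. The transcript MT1F-201 carried 97.2% of the gene's signal. At 60 ug/ml the difference was -0.84 without the third treated library, the lowest of its group, -1.06 without the first control and -1.08 without the second, and was not called in these 3 fits.

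MT1M (ENSG00000205364.3, chr16:56632233-56633986), a further MT1 isoform, followed the same order at a lower level. Its signal was 29.3, 32.9 and 31.7 in the controls and 22.9, 27.7 and 14.5 at 60 ug/ml. It was 14.1, 12.5 and 13.8 at the middle dose and 14.6, 7.5 and 10.3 at the high dose. All 9 treated libraries lay below the controls, and the third library at 60 ug/ml was already near the levels of the higher doses. The group mean went from 31.3 ± 1.83 to 10.8 ± 3.58 at 240 ug/ml, a log2 difference of -1.50 (SE 0.23), after -0.55 and -1.16 at the lower doses.

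MT1E (ENSG00000169715.14, chr16:56625475-56627112) had a signal of 654, 555 and 515 in the controls. It was 492, 481 and 449 at the low dose, 407, 310 and 386 at the middle dose, and 484, 242 and 299 at the high dose. All treated libraries were below the controls, but the first library at the high dose was as high as those at the low dose. The mean was 575 ± 71.4 in the controls and 342 ± 126 at 240 ug/ml, and the log2 difference was -0.27, -0.65 and -0.80 with rising dose (SE 0.21). Of its transcripts, MT1E-201 (89.3% of the signal) had means of 501 ± 56.7 in the controls and 313 ± 113 at 240 ug/ml. The shorter MT1E-203 (9.3%) had means of 68.0 ± 15.03 and 23.4 ± 13.3. The middle-dose value was -0.55 and -0.67 without the first and the second control, and -0.53 and -0.69 without the second and the third treated library, and was not called in these 4 fits. It was also not called with equal library totals (-0.28), with quantile normalization (-0.29), with the length trend removed (-0.48) or without the filter on low values. With every library scaled to the same total, the 240 ug/ml difference of MT1E was -0.37 and was not called.

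MT1G (ENSG00000125144.13, chr16:56666731-56668065), encoded on the opposite strand to the other 5, was near the lower end of the measured range. Its signal was 12.2, 13.5 and 9.0 in the controls, 13.6, 16 and 7.8 at the low dose, 10.0, 6.2 and 5.3 at the middle dose, and 7.8, 4.6 and 2.0 at the high dose. Only the 240 ug/ml libraries were all below the controls. The log2 difference was 0.06, -0.65 and -1.23 (SE 0.37), and -1.29 between 240 and 60 ug/ml. The 240 ug/ml value was -0.82 without the third treated library, -1.19 without control 1 and -1.12 without the second, and was not called in any of these 3 fits.

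MT2A (ENSG00000125148.6, chr16:56608199-56609497), the main human metallothionein of most tissues, had a signal of 5127, 5580 and 4861 in the controls and 6747, 5769 and 5775 at 60 ug/ml. It was 6181, 5971 and 6177 at the middle dose and 7754, 5383 and 5191 at the high dose. The libraries at 60 and 120 ug/ml were all above the controls, whereas at 240 ug/ml 1 library was far above and the other 2 were within the control range. The means were 5189 ± 364, 6097 ± 563, 6110 ± 120 and 6109 ± 1428, and the log2 difference was 0.23, 0.24 and 0.21 (SE 0.18). Without the first library at 240 ug/ml the last value was 0.03.

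MT1X (ENSG00000187193.8, chr16:56682424-56684196) is an MT1 isoform expressed in many cell types. Its signal was 691, 626 and 510 in the controls, 734, 570 and 655 at the low dose, 836, 653 and 635 at the middle dose, and 936, 682 and 652 at the high dose. Each dose overlapped the controls, and the library numbered 1 was the highest in all 4 groups. The means were 609 ± 91.7 in the controls and 757 ± 156 at 240 ug/ml, and the log2 difference was 0.10, 0.22 and 0.31 (SE 0.17). With every library scaled to the same total, MT1X and MT2A were 0.74 and 0.65 above control at 240 ug/ml and were called higher, beside a median of 0.33 over all genes under that scaling. MT2A was then also called higher at 60 and 120 ug/ml (0.44 and 0.61), and MT1X at 120 ug/ml (0.59). With quantile normalization, which leaves the median of all genes at 0.02, MT2A was at 0.68, 0.90 and 1.20 with rising dose and called higher at each. MT1X was then at 0.35, 0.65 and 0.82 and called higher at 120 and 240 ug/ml.

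**Figure D1:**
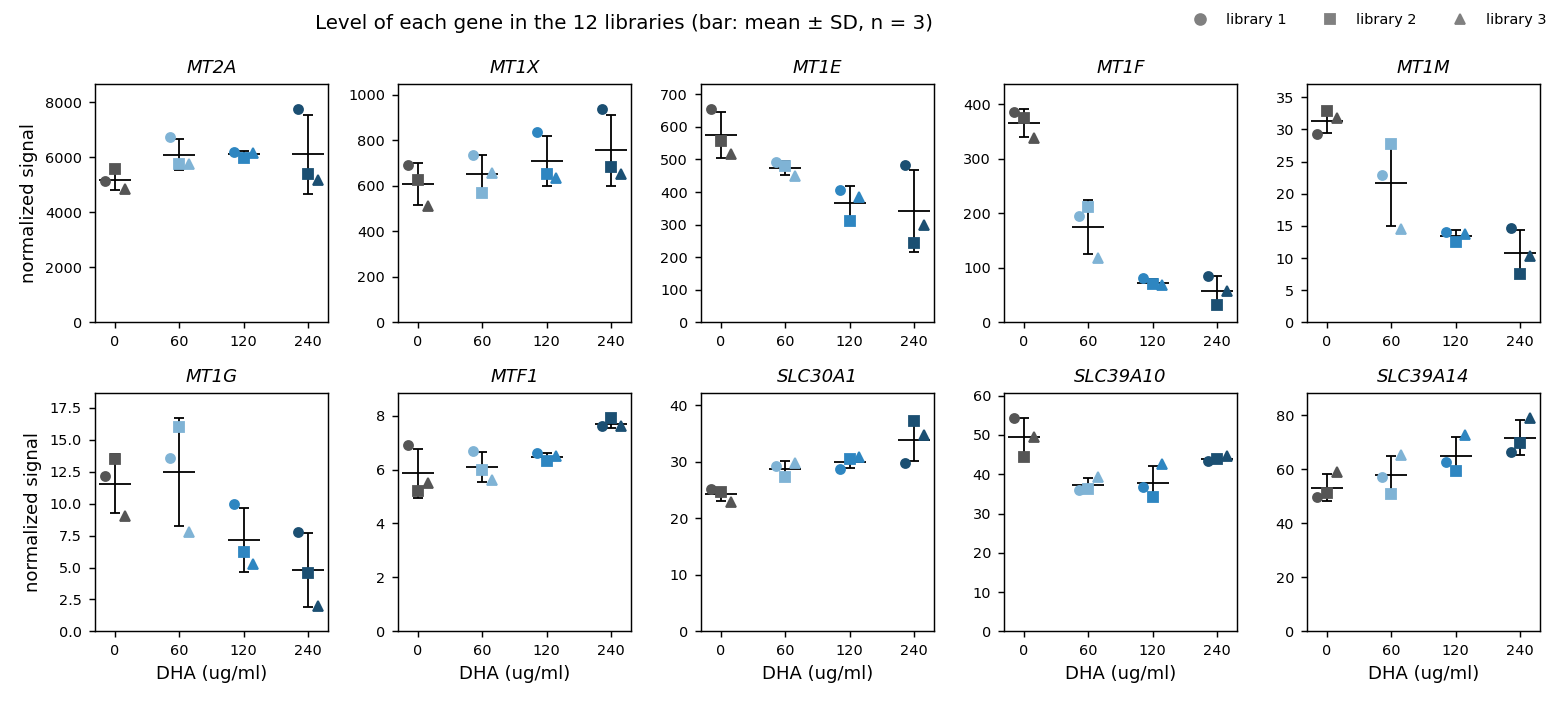
Normalized signal of the 10 genes (y axis, from 0) in each of the 12 libraries by DHA dose (x axis, ug/ml); marker shapes are the 3 library numbers of a group, and the bar with whiskers is the mean ± SD. MT1F and MT1M lie below the controls in every treated library, while MT2A and MT1X at 240 ug/ml overlap them.

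In the deposited scaling the summed signal of the 6 metallothioneins overlapped the controls at every dose. It was 6899, 7182 and 6264 in the controls, 8206, 7075 and 7020 at the low dose, 7529, 7023 and 7285 at the middle dose, and 9281, 6353 and 6211 at the high dose. On the log2 scale the group means differed from control by 0.13, 0.10 and 0.08, and by -0.11 at 240 ug/ml without the first library of that group. As a share of the library's whole signal the sum was 0.548% to 0.598% in the controls, 0.672% to 0.774% at the low dose, 0.757% to 0.810% at the middle dose and 0.693% to 0.957% at the high dose. The means were 0.569%, 0.720%, 0.7897% and 0.817% in that order, and no treated library was within the control range. The library totals were lower with DHA, so dividing by them also lifts other genes. With equal library totals the median gene stood at 0.14, 0.27 and 0.33 with rising dose, and the metallothionein sum at 0.34, 0.47 and 0.51.

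The makeup of the sum did shift, and a comparison within a library does not depend on a factor applied to the whole library. The size of each share does depend on whether the signal was divided by transcript length, which is unknown. The shares are therefore compared between groups and do not rank the genes. MT2A made up 74.3% to 77.7% of the sum in the controls and 83.6% to 84.7% at 240 ug/ml. MT1F made up 5.21% to 5.59% in the controls, 1.69% to 2.996% at the low dose, 0.936% to 1.08% at the middle dose and 0.515% to 0.921% at the high dose. MT1E went from 7.73% to 9.48% in the controls to 3.81% to 5.21% at 240 ug/ml. The share of MT1X was 8.14% to 10.0% in the controls and 10.1% to 10.7% at 240 ug/ml.

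Relative to MT2A in the same library, the log2 ratio of MT1F was -3.73, -3.90 and -3.85 in the controls and -6.51, -7.36 and -6.50 at 240 ug/ml. The difference between the group means was -2.97 for MT1F, -1.80 for MT1M, -1.67 for MT1G and -1.02 for MT1E. For MT1X it was 0.09, with ratios of -3.25 to -2.89 in the controls and -3.05 to -2.98 at 240 ug/ml. MT1X and MT2A thus kept nearly the same proportion in all groups, whereas the other 4 became scarcer beside them.

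**Figure D2:**
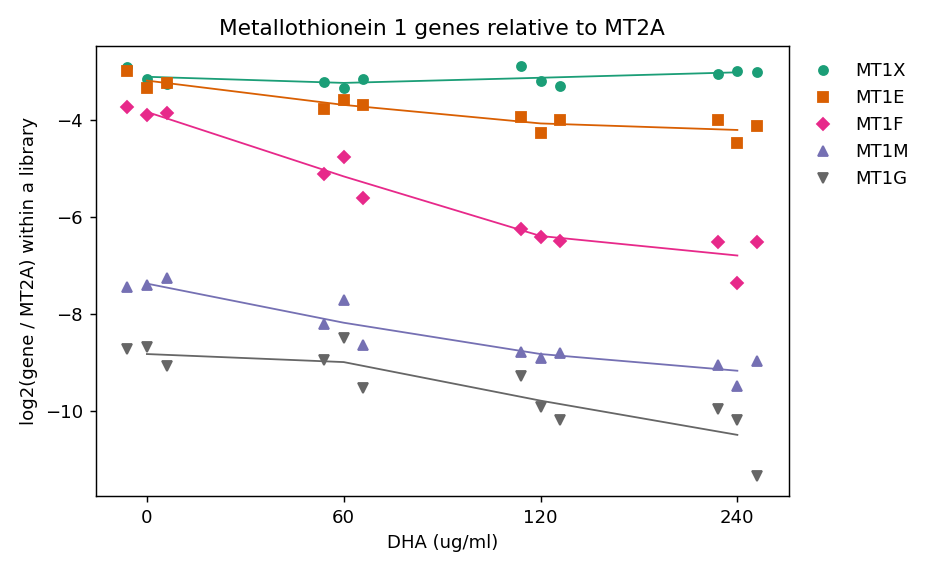
Log2 ratio of each metallothionein 1 gene to MT2A within a library (y axis) by DHA dose (x axis, ug/ml); points are libraries and lines join group means. MT1F is at -3.83 on average in the controls and at -6.79 at 240 ug/ml, while MT1X stays between -3.34 and -2.89 in all 12 libraries.

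Over the 12 libraries, on the log2(value + 1) scale, MT1F correlated with MT1M at r = 0.98, MT1E with MT1F at 0.91 and MT1E with MT1M at 0.89. MT1X correlated with MT2A at 0.76, and MT1F with MT2A at -0.26. These values describe libraries that share dose groups and scaling. The same dose order was present in fibroblast-type markers, of which COL1A1, DCN and LUM were detected above the filter (3 of 7) and COL1A2 was listed at 0. Their list summed to 247 to 342 in the controls, 114 to 217 at the low dose, 66.8 to 76.4 at the middle dose and 38.8 to 65.9 at the high dose, and its part in the metallothionein results was not tested.

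Of the other annotated family members only the MT1 isoform gene MT1A was above the filter. Its signal was 9.9, 8.4 and 3.2 in the controls and 19.1, 12.5 and 6.2 at 240 ug/ml, with a log2 difference of 0.73 (SE 0.43, limma adjusted p = 0.195). MT1B, MT1H, MT1HL1, MT3 and MT4 were listed at 0 in all libraries. The 9 metallothionein pseudogenes together had a signal of 1.7 to 7.9 per library. MT1JP, which lies between MT1M and MT1A, differed by -0.05 at 240 ug/ml (adjusted p = 0.853).

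Along the chromosome, the 4 lower genes lay inside the cluster. MT2A at one end and MT1X at the other were not lower, and MT1A, between the lower genes MT1M and MT1F, was not called. Of 11 tested genes within 500000 bases on either side, 2 rose and 2 fell at 240 ug/ml, near the 19.7% and 23.5% over all genes. OGFOD1, a prolyl hydroxylase, rose by 0.43 (SE 0.11, adjusted p = 0.0105), and NLRC5, an activator of class I antigen presentation genes, rose by 0.64 (SE 0.15, adjusted p = 0.0054). BBS2, a cilium trafficking subunit, fell by 0.90 (SE 0.23, adjusted p = 0.0091), and CPNE2 fell by 0.42 (SE 0.08, adjusted p = 0.0014).

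**Figure D3:**
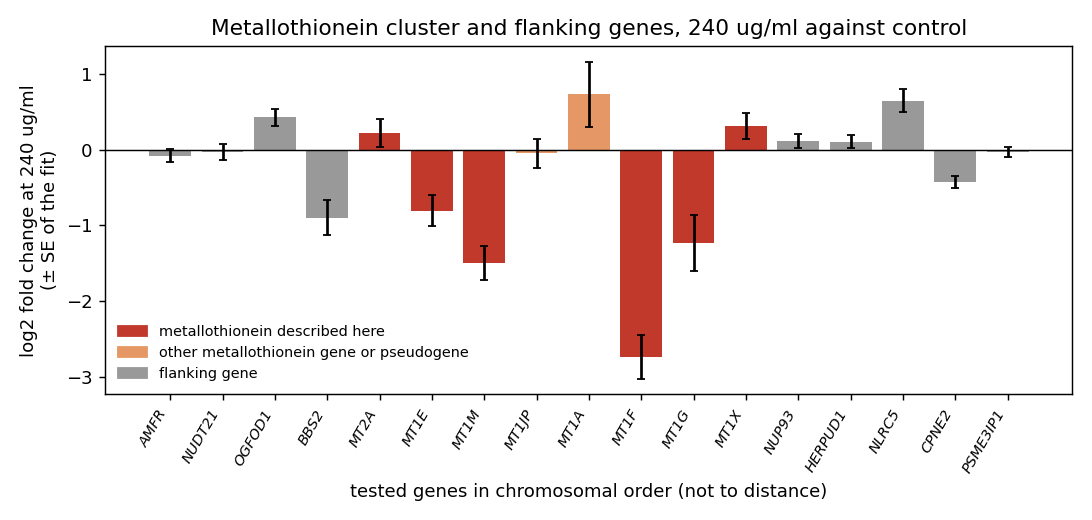
Log2 fold change at 240 ug/ml against control (y axis, log2(value + 1) scale, whiskers ± SE of the limma fit) of tested metallothionein and named flanking genes in chromosomal order (x axis, not to distance). MT1F has the lowest value at -2.73, and the end genes MT2A and MT1X sit at 0.21 and 0.31.

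MTF1 (ENSG00000188786.9, chr1:37809567-37859620), the metal-responsive transcription factor, had a signal of 6.9, 5.2 and 5.5 in the controls, 6.7, 6.0 and 5.6 at the low dose and 6.6, 6.3 and 6.5 at the middle dose. At 240 ug/ml the sum over its transcripts was 7.6, 7.9 and 7.6, above every other library of the series. The mean was 5.87 ± 0.91 in the controls and 7.70 ± 0.17 at 240 ug/ml, a 1.31-fold difference. The log2 difference was 0.05, 0.13 and 0.35 (SE 0.10). It was 0.28 without the second control, 0.31 without the third, 0.33 without the second treated library and 0.21 with the trend of signal on transcript length removed, and was not called in these fits. The main transcript MTF1-201 (95.3% of the signal) was 6.4, 7.9 and 6.7 at 240 ug/ml, which overlapped its 6.6, 6.3 and 6.5 at the middle dose. Of the other zinc-sensing and zinc-binding genes on the list, 5 were tested. CA12, a zinc-dependent carbonic anhydrase of the cell surface, rose from 3.27 ± 0.97 to 13.8 ± 4.07 at 240 ug/ml (log2 1.79, SE 0.25, adjusted p = 2.14e-04), and the other 4 were not called. S100A8, S100A9 and S100A12, which encode secreted zinc-binding proteins, were listed at 0.

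SLC30A1 (ENSG00000170385.9, chr1:211571568-211578742) encodes ZnT1, the exporter that carries zinc across the plasma membrane. Its signal was 25.1, 24.7 and 22.9 in the controls, 29.3, 27.3 and 29.7 at the low dose, 28.7, 30.5 and 30.8 at the middle dose, and 29.8, 37.2 and 34.7 at the high dose. All 9 treated libraries were above the controls. The mean went from 24.2 ± 1.17 to 33.9 ± 3.76, a 1.40-fold difference, and the log2 difference was 0.24, 0.30 and 0.46 (SE 0.09). The middle-dose value was not called without the third control (0.26) or the second treated library (0.29). Across the 12 libraries SLC30A1 correlated with MT1M at -0.94 and with MT1F at -0.93, and with MT2A at 0.21.

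SLC39A14 (ENSG00000104635.13, chr8:22367249-22434129) encodes ZIP14, an importer of zinc, manganese and iron. Its signal was 49.8, 51.1 and 58.9 in the controls, 57.0, 50.9 and 65.3 at the low dose, 62.7, 59.5 and 72.8 at the middle dose, and 66.4, 69.9 and 78.9 at the high dose. The libraries of both higher doses were all above the controls, and those at 60 ug/ml overlapped them. The mean went from 53.3 ± 4.92 to 71.7 ± 6.45, a 1.35-fold difference, with log2 differences of 0.11, 0.28 and 0.42 (SE 0.11). The third library was the highest of its group at every dose and in the controls.

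SLC39A10 (ENSG00000196950.13, chr2:195575977-195737702) encodes ZIP10, an importer at the plasma membrane, and its lowest mean was at the low dose. Its signal was 54.2, 44.5 and 49.5 in the controls, 36.0, 36.3 and 39.2 at the low dose, 36.8, 34.2 and 42.6 at the middle dose, and 43.3, 43.9 and 44.7 at the high dose. The libraries at 60 and 120 ug/ml were all below the controls, and those at 240 ug/ml lay between, with 1 library within the control range. The means were 49.4 ± 4.85, 37.2 ± 1.77, 37.9 ± 4.30 and 44.0 ± 0.70, and the log2 differences were -0.40, -0.38 and -0.16 (SE 0.09). With every library scaled to the same total they were -0.20, -0.02 and 0.26 and none was called, beside all-gene medians of 0.14, 0.27 and 0.33 under that scaling, so the gene stayed below the median gene. At 60 ug/ml the call was also lost without the first control (-0.33) and with the GC trend removed (-0.25). Its main transcript SLC39A10-201 held 54.8% of the signal, with means of 25.1 ± 3.73, 19.2 ± 1.30, 23.4 ± 3.39 and 24.6 ± 1.04 from control to 240 ug/ml. The processed transcript SLC39A10-208 (16.5%) had means of 8.67 ± 1.24, 5.87 ± 1.01, 5.93 ± 0.31 and 7.40 ± 0.85.

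**Figure D4:**
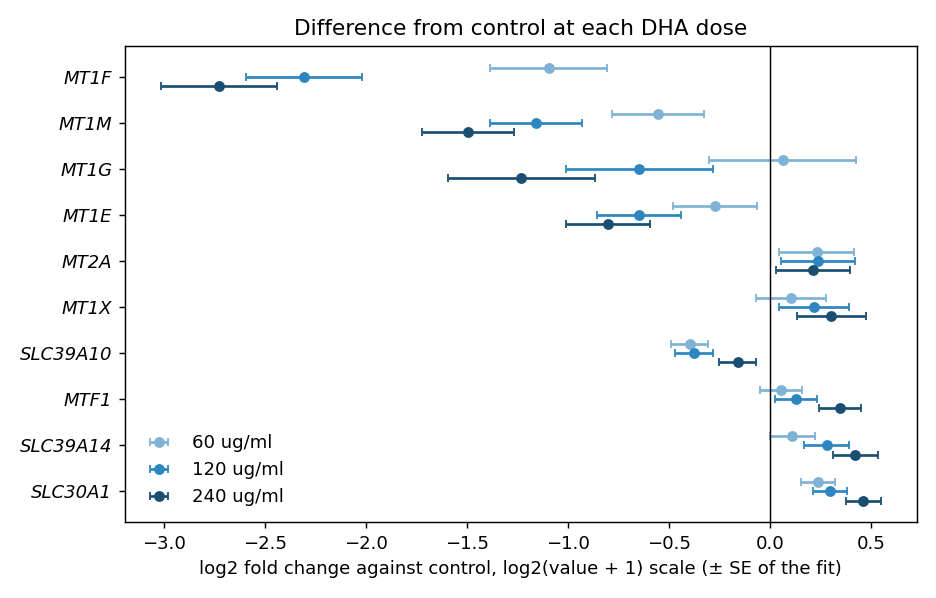
Log2 fold change against control of the 10 genes (x axis, log2(value + 1) scale, whiskers ± SE of the limma fit) at the 3 DHA doses (colours). MT1F lies at -1.10, -2.31 and -2.73 with rising dose, and SLC39A10 is nearer to control at 240 than at 60 and 120 ug/ml.

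The share of all genes called in the same comparison is given beside each count of these 10. At 60 ug/ml 0 of the 10 genes were called higher by limma, where 8.89% of all genes were, and 2 lower (MT1F and SLC39A10), where 10.0% of all genes were. At 120 ug/ml 1 was called higher (SLC30A1), against 15.9% of all genes, and 4 lower (MT1E, MT1F, MT1M and SLC39A10), against 20.8%. At 240 ug/ml 3 were called higher (MTF1, SLC30A1 and SLC39A14), against 19.7%, and 4 lower (MT1E, MT1F, MT1G and MT1M), against 23.5%. Between 240 and 60 ug/ml 0 were called higher by limma, against 11.7%, and 3 lower (MT1F, MT1G and MT1M), against 13.1%. At 240 ug/ml the 3 libraries were all above the controls for 3 of the genes and all below for 4, as they were for 24.2% and 28.7% of all genes. At an unadjusted p under 0.05 of the limma fit, 1 would be higher and 3 lower at 60 ug/ml. Between 240 and 60 ug/ml 4 would be higher and 4 lower. The share of all genes at that threshold is not given here. Since the genes were selected on these contrasts, nothing is read from the counts.

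Over all genes 3306 rose and 3938 fell at 240 ug/ml, and 7206 rose and 1531 fell with every library scaled to the same total. Under that scaling 5 of the 10 genes were called higher (MT1X and MT2A in addition to the 3 above) and 2 lower (MT1F and MT1M). Measured against the median of all genes, which that scaling moved from -0.03 to 0.33, the 10 genes kept their side at 240 ug/ml. MT1F stood at -2.30 and SLC39A10 at 0.26 there. Short transcripts in general had lower values with DHA. The 1273 shortest protein-coding genes (up to 1023 bases) had a median log2 difference of -0.47 at 240 ug/ml, and the metallothionein transcripts belong to that range with 406 to 829 bases. The part of transcript length in the lower metallothioneins was not tested beyond the fits with the length trend removed, in which MT1E, MT1F, MT1G and MT1M were all called lower at 240 ug/ml.

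Of 21 zinc transporters listed outside the 10 genes, 14 were tested. At 240 ug/ml 2 rose, 2 fell and 10 were not called, near the 19.7% and 23.5% of all genes called higher and lower there, with a median log2 difference of -0.07 beside -0.03 over all genes. At 60 ug/ml 1 rose and 1 fell, where 8.89% and 10.0% of all genes did. At 120 ug/ml 0 rose and 2 fell by limma, where 15.9% and 20.8% of all genes did. The list medians at these doses were 0.09 and -0.02. At an unadjusted p under 0.05 of the limma fit, 2 were higher and 2 lower at 120 ug/ml, and the share of all genes at that threshold is not given. Between 240 and 60 ug/ml, 1 was called higher and 4 lower at an adjusted p under 0.05, where 11.7% and 13.1% of all genes were. SLC30A2, SLC30A3, SLC30A8, SLC30A10, SLC39A2, SLC39A5 and SLC39A12 were below the filter.

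Among the exporters outside the 10 genes (5 tested), the 2 that rose at 240 ug/ml serve the early secretory pathway. SLC30A7 (ZnT7, Golgi) was 5.4, 5.7 and 6.2 in the controls and 7.1, 9.2 and 8.0 at 240 ug/ml, and rose by 0.42 (SE 0.11, adjusted p = 0.00865) with no overlap. SLC30A6 (ZnT6, a partner subunit in the same pathway) was 16.3, 15.8 and 17.0 in the controls and 17.9, 20.3 and 22.8 at 240 ug/ml, and rose by 0.29 (SE 0.10, adjusted p = 0.0288). It was not called without the first or second control or the second or the third treated library, at 0.29, 0.27, 0.29 and 0.21, nor with the length trend removed (0.21), without the filter on low values or with only the 2 groups compared. SLC30A5, the partner of SLC30A6, differed by -0.11 (adjusted p = 0.439).

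Among the importers outside the 10 genes (9 tested), the 2 that fell at 240 ug/ml were SLC39A11 and SLC39A1. SLC39A11 (ZIP11, an intracellular transporter) was 26.4, 25.7 and 23.3 in the controls, 18.9, 18.4 and 15.9 at the middle dose, and 15.9, 13.1 and 16.1 at the high dose. It fell by 0.48 (SE 0.11, adjusted p = 0.00577) and 0.71 (SE 0.11, adjusted p = 4.44e-04) at these doses. SLC39A1 (ZIP1, a plasma membrane importer) was 166, 173 and 166 in the controls, 191, 197 and 186 at the low dose, 142, 149 and 152 at the middle dose, and 138, 123 and 136 at the high dose. It was thus above the controls in every library at 60 ug/ml (0.18, adjusted p = 0.0825) and below them in every library at the higher doses. It fell by 0.19 at the middle dose (SE 0.07, adjusted p = 0.0458) and by 0.35 at the high dose (SE 0.07, adjusted p = 0.00163). With every library scaled to the same total these values were 0.18 and 0.08, still below the all-gene medians of 0.27 and 0.33, and the 120 ug/ml call was kept in 5 of 22 alternative fits.

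At 60 ug/ml the importer genes SLC39A3 and SLC39A6 (ZIP3 and ZIP6) passed the test. SLC39A3 rose by 0.29 (SE 0.09, adjusted p = 0.034) and SLC39A6 fell by 0.35 (SE 0.10, adjusted p = 0.0234). SLC39A3 lost its call without the first or the third control or any 1 of the treated libraries (0.22 to 0.31). SLC39A6 lost its call without any 1 control or the first treated library (-0.38 to -0.26). ZIP6 forms a complex with ZIP10. SLC39A6 had its lowest mean at 60 ug/ml, 41.2 ± 4.63 against 52.7 ± 2.07 in the controls. SLC39A10 was also lowest there, but near its mean at 120 ug/ml (37.2 ± 1.77 and 37.9 ± 4.30), and a link was not tested. The signal of SLC39A7, the reticulum zinc channel ZIP7, moved between 9.1 and 25.1 within groups, and no difference was detectable at that spread.

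**Figure D5:**
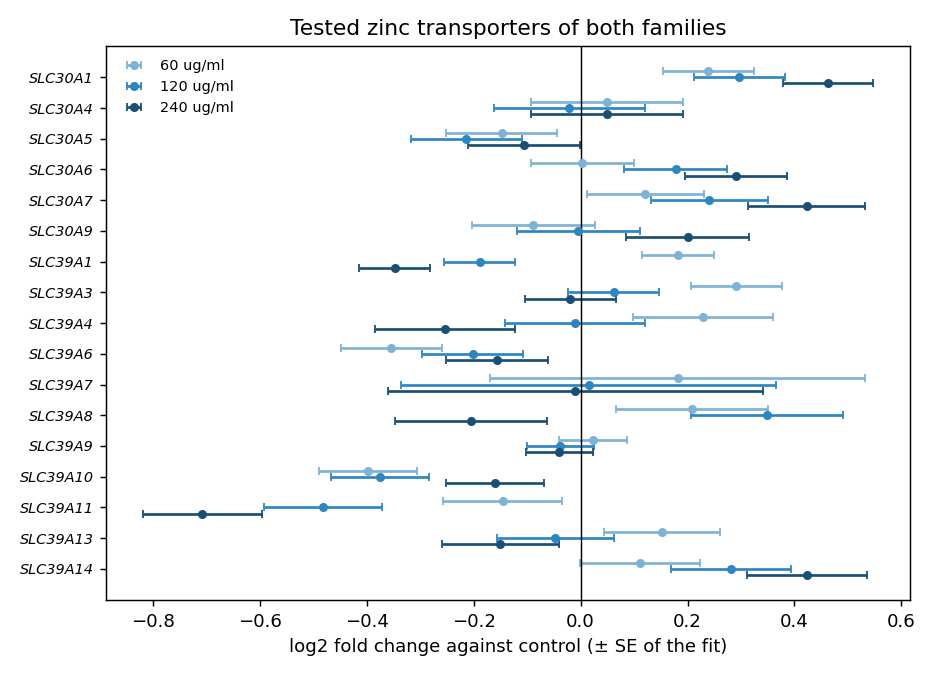
Log2 fold change against control (x axis, log2(value + 1) scale, whiskers ± SE of the limma fit) of the 17 tested zinc transporter genes at the 3 DHA doses (colours). SLC39A11 has the lowest value at 240 ug/ml (-0.71), and SLC30A1, SLC30A7 and SLC39A14 lie between 0.42 and 0.46.

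Among copper handling genes 4 of 11 tested fell and 0 rose by limma at 240 ug/ml (0 higher also at an unadjusted p under 0.05), with a list median of -0.14. Of all genes 23.5% fell and 19.7% rose there, which is the background for each of these lists. The list has 11 entries because SCO2 is annotated as 2 genes. They were COX17, a copper chaperone of mitochondria (-1.15, SE 0.28, adjusted p = 0.00671), ATOX1, the chaperone of the copper pumps (-1.02, SE 0.16, adjusted p = 3.79e-04), COMMD1 (-0.998, SE 0.17, adjusted p = 6.87e-04) and SLC31A2 (-0.49, SE 0.15, adjusted p = 0.0227). The call of SLC31A2 was lost without the second or the third control or the second treated library (-0.49, -0.44 and -0.34), with equal library totals (-0.14), quantile normalization (-0.43) or the length trend removed (-0.38), and without the filter on low values. SLC31A1, the plasma membrane copper importer, differed by 0.11 (adjusted p = 0.26).

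Among glucocorticoid-responsive genes 4 of 11 tested rose and 3 fell at 240 ug/ml, where 19.7% of all genes rose and 23.5% fell, with a median of 0.12. ERRFI1, an inhibitor of the EGF receptor, rose by 1.78 (SE 0.17, adjusted p = 2.43e-05) and the clock gene PER1 by 0.55 (SE 0.18, adjusted p = 0.0305). PER1 lost its call without the third control or without the first or second treated library (0.37, 0.57 and 0.44), and differed by -0.07 over its protein-coding transcripts alone. CEBPD, a transcription factor, fell by 1.65 (SE 0.18, adjusted p = 4.63e-05) and TSC22D3, the glucocorticoid-induced leucine zipper, by 0.64 (SE 0.17, adjusted p = 0.0098). With equal library totals TSC22D3 was at -0.21 and not called. Among thiol and heme defence genes 7 of 12 rose and 1 fell at that dose, beside the same shares of all genes, with a median of 0.63. TXNRD1, thioredoxin reductase, rose by 1.51 (SE 0.13, adjusted p = 1.42e-05) and HMOX1, heme oxygenase, by 1.40 (SE 0.17, adjusted p = 8.05e-05). PGD, an enzyme of the pentose phosphate pathway, fell by 0.50 (SE 0.11, adjusted p = 0.00326), and with equal library totals was at -0.07 and not called.

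The tested genes most like the summed metallothionein level over the 12 libraries were TBC1D20 (r = 0.87), BCL2L1 (0.84), FDXR (0.83), SNORD71 (0.83) and TARS2 (0.79). The least like were HCFC2 (-0.83), RANBP10 (-0.82), the unnamed genes ENSG00000259244 (-0.82) and ENSG00000274383 (-0.80), and ZNF114 (-0.80). For SLC39A10 the most like were ZNF271P (0.96), PGM3 (0.93), STAU2 (0.93), FRMD6 (0.93) and DCP2 (0.92). These are the extremes among 16789 genes over 12 libraries that share dose groups, and are given as a description.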

How the data were processed

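Poly(A)-selected RNA of HK-2 cells was sequenced in 12 libraries as paired-end 150 base reads, per the labels' protocols. The deposited table gives a normalized signal for 267165 Ensembl transcripts in 12 columns, each matched to 1 sample by its library name, and how the authors scaled the signal is not stated. The submitters' processing notes name GRCh38.p14, and no aligner, quantifier or strand setting (not given in the sources used here). Transcripts matched to GENCODE 29 (75.7%, with 93.8% to 94.7% of the signal) were summed per gene, and log2(value + 1) was fitted with limma-trend (limma 3.58.1, R 4.3.3), 1 mean per group, over the 16789 genes that reached a value of 1 in 3 or more libraries. P-values are two-sided and Benjamini-Hochberg adjusted over these genes, with calls under 0.05. Whether libraries of a group were separate cultures is not stated, so p-values measure only the spread among these libraries, possibly a technical one. A pseudocount of 1 understates changes of low genes. Doses share the 3 controls. Alternatives were equal library totals, quantile normalization, another pseudocount (0.1), protein-coding transcripts alone, removal of length or GC trends, the replicate block, no filter, separate fits and leaving out each library. The genes and lists were chosen with earlier results of these data known. Of the lists, genes named were every zinc transporter called at 240 ug/ml, the 2 highest and 2 lowest called genes of each other list, and the genes most and least like the metallothionein sum. Those named outside this rule (transporters of the lower doses, COMMD1, SLC31A2, MT1A, flanking and marker genes) were chosen after their values were seen. In simulated libraries of the 240 ug/ml comparison (16789 genes), the fit found 42% of log2 changes of 0.5, 94% of 1 and 100% of 2, with 6 false calls. Changes were planted in few genes, with the lowest genes left out, and the noise was independent between libraries. The rates need not hold for low genes or for changes as widespread as in these data.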

Additional observations from a re-analysis of the deposited data

How the results depend on the processing

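Of the calls of the 10 genes at 240 ug/ml, those of MT1F, MT1M, SLC30A1 and SLC39A14 held in all 22 alternatives, MT1E in 21, MT1G in 18 and MTF1 in 17. These 10 genes were selected on the same libraries. Their kept calls therefore describe the processing and add no support for a difference. With equal library totals the log2 difference of the metallothionein sum was 0.338, 0.473 and 0.511 at 60, 120 and 240 ug/ml, with quantile normalization 0.51, 0.685 and 0.938, and with the length trend removed, with or without the replicate block, 0.287 at 240 ug/ml. Leaving out 1 library gave -0.108 to 0.181 at 240 ug/ml. SLC39A1 was reversed by equal totals (0.178 at 120 and 0.081 at 240 ug/ml, where the median gene was at 0.268 and 0.33) and PER1 by protein-coding transcripts alone (-0.068). The cause was not tested.

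Against 2, 2 and 4 zinc transporters called outside the 10 genes, limma called 0 at 60 ug/ml with the GC trend removed (3 higher and 1 lower at an unadjusted p under 0.05), and 1 with no filter on low values or with only the 2 groups compared. At 120 ug/ml it called 7 with equal totals and 1 with protein-coding transcripts alone or with the length trend removed. At 240 ug/ml it called 6 with equal totals and 5 with protein-coding transcripts alone. It called 3 there with the length trend removed or with only the 2 groups compared. Leaving out 1 library gave 0 to 3 at 60 ug/ml, 1 to 3 at 120 ug/ml and 3 to 6 at 240 ug/ml. The replicate block gave 2, 2 and 4, and with the length trend removed 4 at 60 and 1 at 120 ug/ml. Library numbers do not pair the samples by their labels, and 6 of 18 same-numbered pairs correlated above 0.1 (-0.025 to 0.236), while 9 of 12 libraries were closest to their own number. With the block MT1X was called higher at 240 ug/ml (0.305), and MT1G lower (-0.647) and SLC39A14 higher (0.281) at 120 ug/ml, the calls it changed among the 10 genes. The block changed the counts over all genes at 240 ug/ml from 3306 and 3938 to 3626 and 4275. Read depth is unknown, which limits the low genes MT1G and MTF1 most.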
